A study of Mus musculus with 6 samples.

Results

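Heat shock proteins and chaperonins are the proteins that help other proteins to fold, and their transcripts were followed in germinal center (GC) B cells with and without the receptor for IL-21. The set held 40 listed genes of the 27179 genes in the count table. It covers the TRiC/CCT chaperonin, prefoldin, the mitochondrial chaperones, the cytosolic HSP70 and HSP110 proteins, J proteins, HSP90 with its cochaperones, and the heat shock transcription factors. Membership was set by gene name, and the list was drawn up with earlier results of these data known. Of the 40 genes, 39 were abundant enough to be tested, among 11005 genes in all, and Hspa1a was not.

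The 6 RNA-seq libraries came from spleen B cells of C57BL/6 mice injected with the hapten NP coupled to the protein KLH (NP-KLH) in alum. One library was made from WT and one from Il21r-/- mice, which lack the IL-21 receptor from the germline, on each of days 7, 10 and 14. B220+IgG1+ cells that bound NP and lacked CD38, CD138, Gr1, IgD and IgM were sorted, so class-switched GC B cells were kept and plasma cells and unswitched B cells were gated out. The comparisons ask how loss of the receptor alters the transcripts of GC B cells and whether this changes over the response. The sources differ on the animals behind a library: the series description assigns a single mouse to each, the supplementary material describes cells enriched from 3 mice of each genotype on day 7, and the methods count mice per genotype over all days and a pair of immunizations. The methods also state that nearly all experiments used irradiated Ly5.1 hosts reconstituted with WT or Il21r-/- marrow. They do not say so for the sequenced mice in particular, and residual host B cells, which carry an intact receptor, would then be possible. The age and sex of the mice were not used here.

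A chaperone binds a protein that has not yet reached its folded shape and lets go of it in a cycle driven by ATP. HSP70 proteins take up short exposed stretches with the help of J proteins, and HSP110 proteins reset them by exchanging nucleotide. HSP90 acts later, on kinases, receptors and other clients handed over by cochaperones, while the barrel-shaped chaperonins enclose whole proteins, TRiC/CCT in the cytosol and HSP60 with its lid HSP10 in mitochondria. The transcription factor HSF1 drives many of these genes by binding heat shock elements, which are alternating GAA and TTC repeat units spaced by short gaps, and dividing cells that make much protein, such as GC B cells, need a large folding capacity.

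Heat shock elements in the promoters are shown first, because the genes differ in whether an exact spelling of one was found near the start. Windows from 250 bases before to 50 bases after the RefSeq start (GRCm38.p6) were found for 32 of the 40 genes and were searched on both strands for 3 repeat units in a row, spelled GAANNTTCNNGAA or TTCNNGAANNTTC. Each spelling is the reverse complement of the other, and overlapping matches were joined. A match was present for 5 of the 32 genes (15.6%), against 0.662% of the 27025 genes with a window and 0.539% of the 8529 tested genes with one. These were Hspd1, Hspe1, Hsph1, Chordc1 and Dnajb6. The stretches of 30 bases around the matches are given 5' to 3' on the strand of the gene, with the matched repeat units and their gaps in capitals, so that the shared element of the Hspd1 and Hspe1 pair can be seen.
Hspd1, chr1:55088053-55088082, minus strand: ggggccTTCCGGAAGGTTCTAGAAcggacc
Hspe1, chr1:55088053-55088082, plus strand: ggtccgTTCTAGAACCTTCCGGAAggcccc
Hsph1, chr5:149636287-149636316, minus strand: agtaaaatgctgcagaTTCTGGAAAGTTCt
Chordc1, chr9:18292259-18292288, plus strand: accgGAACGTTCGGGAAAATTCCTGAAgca
Dnajb6, chr5:29735843-29735872, plus strand: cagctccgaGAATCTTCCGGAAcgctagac
The Hspd1 and Hspe1 lines are the same bases read from opposite strands, since these genes are transcribed away from each other. The joined match of 18 bases there ran from 89 to 72 bases before the start of Hspe1 and from 144 to 127 bases before the more downstream of the 2 Hspd1 starts, whose other start lies past that of Hspe1. The Hsph1 match lay after the start, and the Chordc1 match of 23 bases spanned it. No match to these letters was found in the windows of the other 27 genes, Stip1, Hspa1a, Hspa1b and Dnajb1 among them. The search allowed no mismatch and no bases outside the windows, so a gene without a match may still hold an element. Hsp90aa1, Hsp90ab1, Hspa8, Hspa9, Hsf1, Ppid, Cct4 and Pfdn1 were not searched. A match describes the letters of the window and not a bound site.

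Levels between genes were compared per length, as TMM-scaled CPM, which puts the counts of each library on a common total, divided by the transcript length in kb, averaged over the 6 libraries. Hspa8, the constitutive cytosolic HSP70, stood at 932 CPM per kb and Hsp90ab1, the constitutive HSP90, at 861 CPM per kb. Together they made up 29.8 to 34.7% of the counts of the 40 genes. The TRiC/CCT subunits ranged from 146 CPM per kb for Cct6a to 438 CPM per kb for Cct5. The stress-inducible genes Hspa1a and Hspa1b were the least abundant, at 0.162 and 0.797 CPM per kb. Between 1.10 and 1.54% of all counts in a library fell on the 40 genes.

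**Figure D1:**
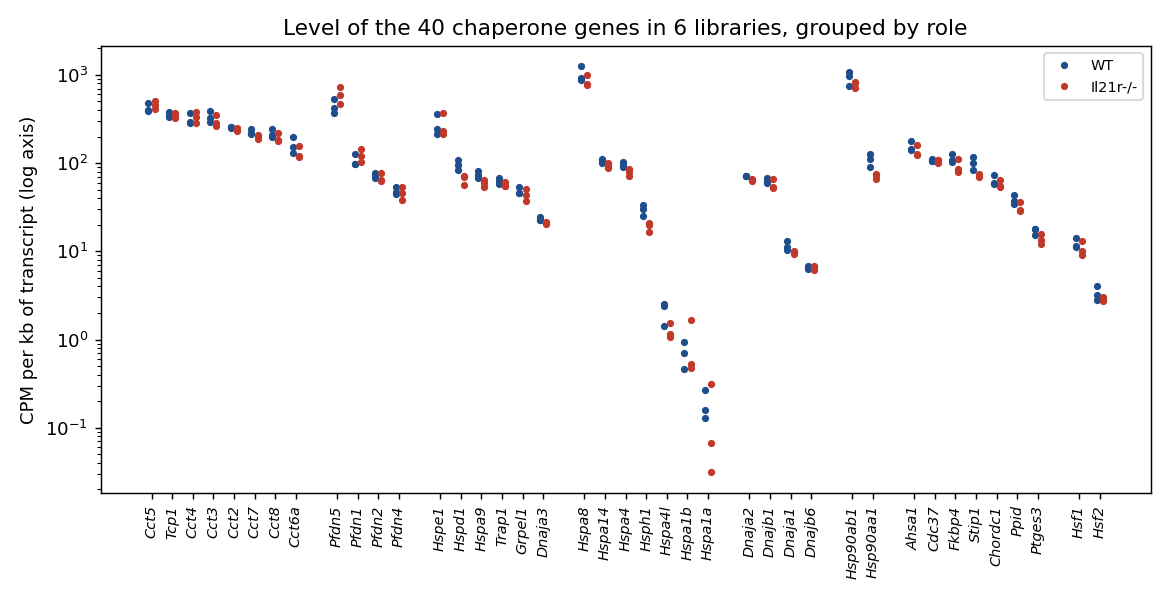
CPM per kb of transcript (log axis) of the 40 genes in each of the 3 WT (blue) and 3 Il21r-/- (red) libraries, grouped by role and ordered by mean level. Means run from 0.162 CPM per kb for Hspa1a to 932 for Hspa8, and for most genes the points of both genotypes lie close together on this axis.

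The libraries held 21353438 to 27435124 counts on genes and the GC B cell gene Bcl6 at 145 to 239 CPM. Il21r, the deleted gene, was at 346, 263 and 247 CPM in WT and 106, 128 and 113 CPM in Il21r-/- cells on days 7, 10 and 14, so reads remained in the knockout at a lower level. Of 9 T cell genes, all but Lck, which stood at 80.8 to 121 CPM, were below 1 CPM throughout. The 9 myeloid genes summed to 8.42 to 14.2 CPM in WT and 12.2 to 19.9 CPM in Il21r-/- cells, higher in Il21r-/- cells on each day, with Mpo at 0. Cd68, a macrophage gene, was at 7.69, 5.94 and 5.99 CPM in WT and 11.1, 9.56 and 9.39 CPM in Il21r-/- cells and was lower in WT (adjusted p = 0.0449 in edgeR's quasi-likelihood test). Of the plasma cell genes, Prdm1 was higher in WT, at 1.39, 1.83 and 1.59 CPM against 0.262, 0.61 and 0.682 CPM, and Xbp1 was lower in WT, at 235, 216 and 198 CPM against 305, 275 and 268 CPM, with adjusted p-values of 0.0216 and 0.0396 in the same test. Genes that respond to tissue handling, such as Fos and Jun, summed to 509 to 770.1 CPM in WT and 767 to 815 CPM in Il21r-/- cells, with a log2 fold change (WT over Il21r-/-) above 0 for 5 of 12, and with Atf3 higher and Btg2 lower in WT at an adjusted p under 0.05. Among genes of B cells outside the GC, Fcer2a and Ccr7 passed the same test as lower and Ighm as higher in WT.

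Over the 3 days, 4 genes of the set were higher in WT than in Il21r-/- cells and 0 were lower. The 4 were Hsph1, Hsp90aa1, Hspd1 and Stip1. They belong to 4 different roles, a nucleotide exchange factor for HSP70, the inducible HSP90, the mitochondrial HSP60 and the adaptor that joins HSP70 to HSP90. These are 10.3% of the 39 tested members, against 5.92% of all tested genes called in either direction and 1.4% called higher in WT. The log2 fold change (WT over Il21r-/-) was above 0 for 33 of the 39 genes, with a median of 0.17, while the median of all 11005 genes was -0.01. Calls are from edgeR's quasi-likelihood test with a linear effect of day, at a Benjamini-Hochberg adjusted p under 0.05. The unadjusted p was under 0.05 for 13 of 39 members and 2356 of 11005 tested genes. The calls depended on single libraries, and so did those of all genes. Without the WT or without the Il21r-/- library of day 14, 0 members passed, against 1.24% and 2.51% of all tested genes. Without WT day 10, 2 passed (5.13%, Hsp90aa1 and Hsph1), against 3.09%. Without Il21r-/- day 10, 9 passed (23.1%, 7 higher in WT, with Pfdn5 and Pfdn1 lower), against 19.1%. With no day term 0 passed, against 1.57%, and 34 of 39 log2 fold changes were above 0.

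All 12 genes of a proliferation list had a log2 fold change above 0, with a summed level of 4558 to 5682 CPM in WT and 3652 to 4292 CPM in Il21r-/- cells. In edgeR's quasi-likelihood test 1 of them (8.33%), Rrm2, passed, against 5.92% of all tested genes, and 10 (83.3%) passed with day as a block, against 22.9%. Their part in the chaperone differences, and that of the myeloid, plasma cell and tissue handling genes and the genes of B cells outside the GC, was not tested. In bulk RNA, more transcript per cell and more cells of a high-expressing kind cannot be told apart.

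The libraries of a day deviated together from their genotype means, a measure from which the linear day effect was not removed. A fit that treats day as a block is given beside the linear one. There 15 members passed (38.5%), against 22.9% of all tested genes, 14 of them higher in WT and 1, Pfdn5, lower. The 14 were the 4 genes above with Hspa4, Hspa4l, Hspa8, Hspa9, Hsp90ab1, Ptges3, Fkbp4, Ppid, Dnaja1 and Cct6a. Levels of WT exceeded those of Il21r-/- cells on all 3 days for 28 of 39 members (71.8%), against 25.4% of all tested genes, and fell below them on all 3 days for 3 members (7.69%), against 27.9%. For 11 members (28.2%) the lowest WT library lay above the highest Il21r-/- library, against 8.33% of all tested genes, and for 0 members the reverse, against 10%. The 11 were Hsph1, Hsp90aa1, Hspd1, Stip1, Hspa9, Hspa4, Hspa14, Dnaja1, Dnaja2, Dnaja3 and Cct7.

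**Figure D2:**
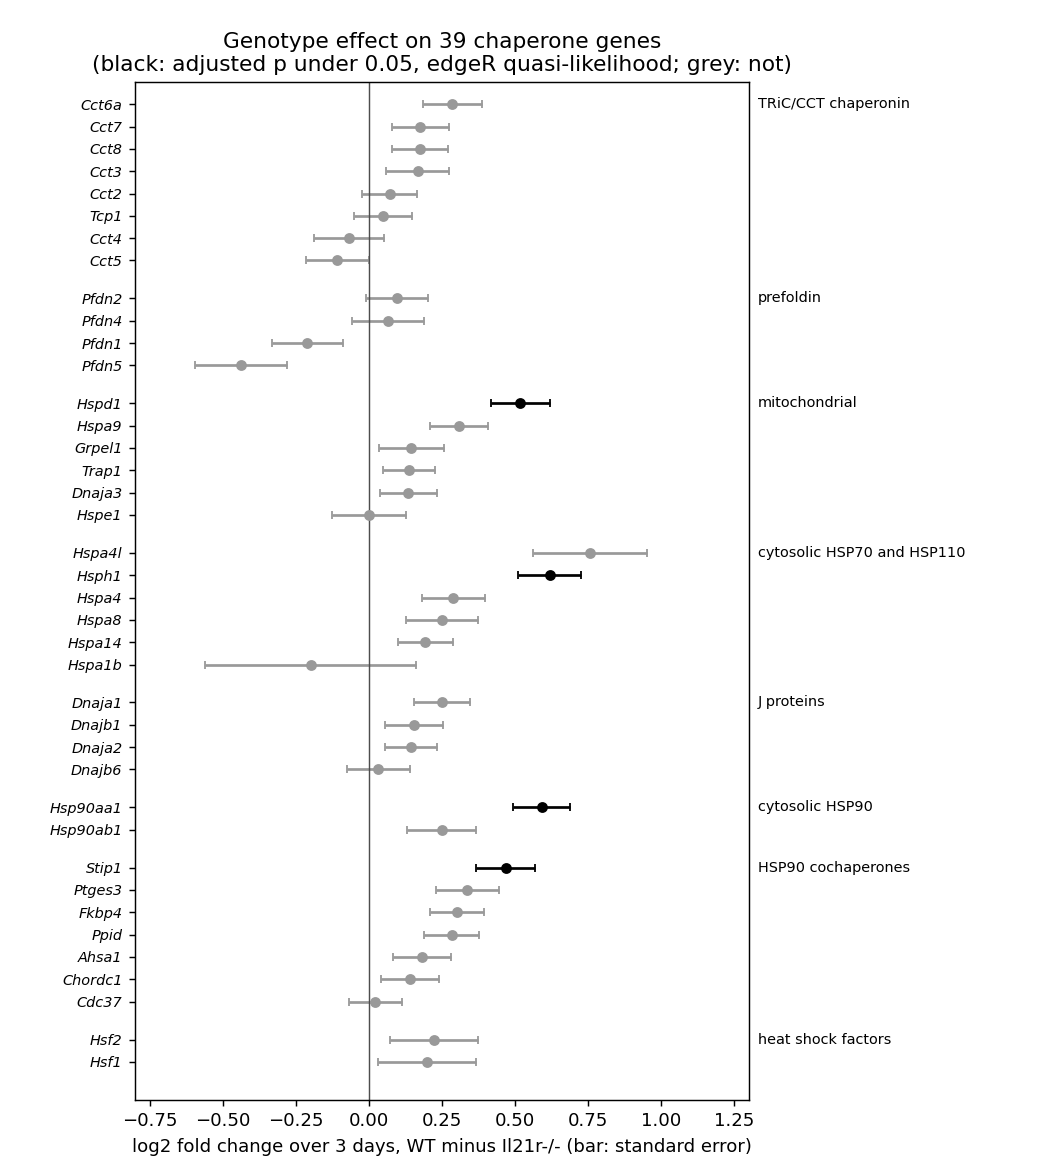
Log2 fold change over the 3 days (WT minus Il21r-/-, horizontal axis) of the 39 tested genes, grouped by role, with bars for the standard error; black marks an adjusted p under 0.05 in edgeR's quasi-likelihood test. The black points are Hspd1, Hsph1, Hsp90aa1 and Stip1, and most grey points also lie right of 0, with Pfdn5 the farthest to the left at -0.44.

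Of the 6 tested genes for cytosolic HSP70 and HSP110 proteins, 5 had a log2 fold change above 0 and 1, Hsph1, passed the test. Hsph1 (HSP110, chr5:149616843-149636498 in GRCm38.p6) exchanges the nucleotide of HSP70, and it stood on days 7, 10 and 14 at 88.6, 105 and 116 CPM in WT and 58.3, 73.6 and 68.9 CPM in Il21r-/- cells. Each WT library was above each Il21r-/- library. The log2 fold change was 0.62 (SE 0.11), or 1.54-fold, with an adjusted p of 0.0123 in edgeR's quasi-likelihood test. Hspa4l, a close relative of Hsph1 at low abundance, stood at 5.09, 9.11 and 8.62 CPM in WT and 3.84, 4.11 and 5.50 CPM in Il21r-/- cells. Its groups overlapped between WT day 7 and Il21r-/- day 14, and its log2 fold change of 0.76 (SE 0.20) had an edgeR adjusted p of 0.0584 and of 0.00177 with day as a block.

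Hspa4, the third HSP110-type gene, was measured at 417, 447 and 474 CPM in WT and 364, 397 and 333 CPM in Il21r-/- cells. The groups did not overlap, the log2 fold change was 0.29 (SE 0.11), and the edgeR adjusted p was 0.166, or 0.00592 with day as a block. Hspa8 carries most of the HSP70 transcript, and its levels were 1920.0, 1848 and 2636 CPM in WT and 1639, 1634 and 2087 CPM in Il21r-/- cells. WT was the higher library on each day while the day 14 level of Il21r-/- cells passed those of WT on days 7 and 10, and the log2 fold change of 0.25 (SE 0.12) passed only with day as a block (edgeR adjusted p = 0.0157, against 0.291). Hspa14, a ribosome-linked HSP70, had the smallest difference among the members of its role, with 181, 193 and 201 CPM in WT and 169, 156 and 177 CPM in Il21r-/- cells and a log2 fold change of 0.19 (SE 0.09).

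The strongly stress-inducible HSP70 genes were near the floor of detection. Hspa1b stood at 1.98, 1.301 and 2.62 CPM in WT and 1.35, 1.49 and 4.70 CPM in Il21r-/- cells, with WT higher on 1 of 3 days and a log2 fold change of -0.20 (SE 0.36). Hspa1a had 12, 9 and 16 counts in WT and 2, 5 and 22 counts in Il21r-/- cells and was not tested. The coding parts of these genes are nearly identical, so their reads may have been split or lost and single values are uncertain. Their summed counts were 66, 41 and 72 in WT and 33, 44 and 139 in Il21r-/- cells, with the highest value in Il21r-/- day 14 and no common direction across days.

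Both cytosolic HSP90 genes had a positive log2 fold change, and the inducible one passed the test. Hsp90aa1 (chr12:110691036-110696395) stood at 258, 315 and 358 CPM in WT and 186, 210.4 and 216 CPM in Il21r-/- cells. The highest Il21r-/- library was below the lowest WT library, and the log2 fold change of 0.59 (SE 0.10), or 1.51-fold, had an edgeR adjusted p of 0.0107. Hsp90ab1, the constitutive form, stood at 1899, 2449 and 2712 CPM in WT and 1774, 2022 and 2098 CPM in Il21r-/- cells. WT was higher on each day, by the most on day 14, but the groups overlapped across days and the log2 fold change was 0.25 (SE 0.12) (edgeR adjusted p = 0.266, or 0.0182 with day as a block).

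HSP90 cochaperones all had a log2 fold change above 0, 7 of 7, and 1 passed. Stip1 (HOP, chr19:7020696-7040026), which bridges HSP70 and HSP90, stood at 180.1, 219 and 253 CPM in WT and 151, 155 and 163 CPM in Il21r-/- cells. The genotypes did not overlap, and Il21r-/- cells kept nearly the same level on all days while WT did not. Its log2 fold change was 0.47 (SE 0.10), or 1.38-fold, with an edgeR adjusted p of 0.0325. Fkbp4, an immunophilin that joins HSP90 on steroid receptors, had 222, 232 and 276 CPM in WT and 171, 186 and 239 CPM in Il21r-/- cells, a log2 fold change of 0.30 (SE 0.09) and an edgeR adjusted p of 0.103, or 0.0043 with day as a block. Ppid, another HSP90-binding immunophilin, was at 59.4, 63.7 and 74.3 CPM in WT and 49.4, 50.7 and 62.1 CPM in Il21r-/- cells, with a log2 fold change of 0.28 (SE 0.09).

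Ptges3 (p23), which stabilizes the closed form of HSP90, was at 30.01, 35.3 and 35.4 CPM in WT and 23.5, 26.0 and 30.6 CPM in Il21r-/- cells, with WT higher on each day and a log2 fold change of 0.34 (SE 0.11). Its value is uncertain because the processed pseudogene Ptges3-ps held 1563 to 2280 counts in a library, more than Ptges3 itself, so reads of 1 gene may have been counted on the other. Cdc37, which brings kinases to HSP90, showed the least difference in its role, with 261, 258 and 275 CPM in WT and 265, 247 and 269.6 CPM in Il21r-/- cells and a log2 fold change of 0.02 (SE 0.09), whose 95% interval ran from -0.19 to 0.23. The remaining cochaperones, Ahsa1, which speeds the ATPase of HSP90, and Chordc1, had log2 fold changes of 0.18 and 0.14.

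**Figure D3:**
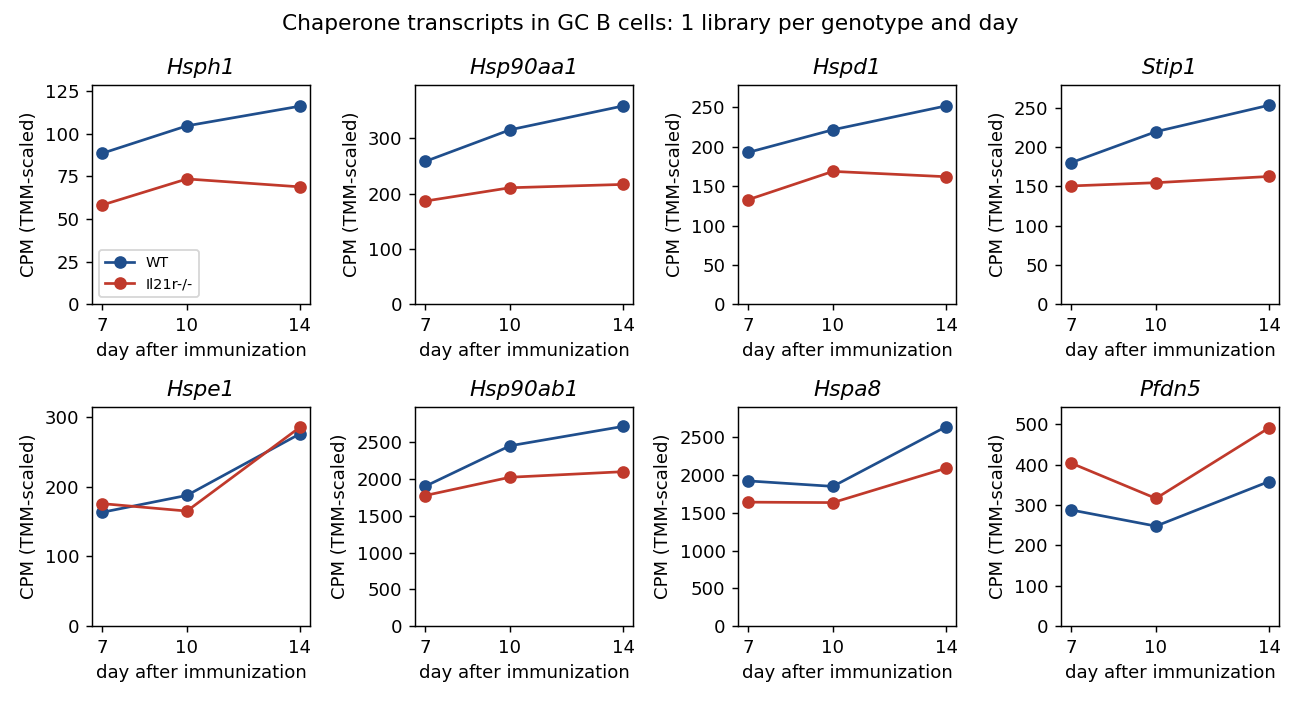
TMM-scaled CPM (vertical axes from 0) against day after immunization in the single WT (blue) and Il21r-/- (red) library of each day, for 8 genes. WT lies above Il21r-/- cells on each day for Hsph1, Hsp90aa1, Hspd1, Stip1, Hsp90ab1 and Hspa8, the lines of Hspe1 cross, and Pfdn5 lies lower in WT on each day.

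Of the 6 mitochondrial chaperone genes, 1 passed, the chamber of the HSP60 machine, while its lid did not. Hspd1 (HSP60, chr1:55077833-55088243), the chamber, was at 193, 221 and 252 CPM in WT and 133, 169 and 162 CPM in Il21r-/- cells. The genotypes did not overlap, and the log2 fold change of 0.52 (SE 0.10), or 1.43-fold, had an edgeR adjusted p of 0.0214. Hspe1 (HSP10, chr1:55088148-55091317), the lid, was at 163, 187 and 276 CPM in WT and 176, 165 and 285 CPM in Il21r-/- cells. Here the libraries of the same day were close, WT was higher on 1 of 3 days, and the log2 fold change was 0.00 (SE 0.13), with a 95% interval from -0.29 to 0.28. The genes overlap head to head and the library kit does not mark strand, so reads in the overlap cannot be assigned to either.

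Hspa9 (mortalin), the mitochondrial HSP70 that pulls proteins in, was at 204, 222 and 249 CPM in WT and 165, 196 and 183 CPM in Il21r-/- cells. All WT libraries were above all Il21r-/- libraries, and the log2 fold change of 0.31 (SE 0.10) had an edgeR adjusted p of 0.114, or 0.00422 with day as a block. Its J protein Dnaja3, its nucleotide exchange factor Grpel1 and the mitochondrial HSP90, Trap1, had log2 fold changes of 0.13, 0.15 and 0.14, none past the test.

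J proteins, which deliver substrates to HSP70 and trigger its ATPase, had log2 fold changes above 0 in 4 of 4 genes, with none past the test. Dnaja1 was at 60.6, 65.6 and 75.6 CPM in WT and 54.6, 55.4 and 59.1 CPM in Il21r-/- cells, without overlap between genotypes, with a log2 fold change of 0.25 (SE 0.10) and an edgeR adjusted p of 0.178, or 0.0363 with day as a block. Dnajb6, which binds aggregating proteins, was at 25.0, 26.1 and 27.1 CPM in WT and 25.6, 24.2 and 26.6 CPM in Il21r-/- cells, with a log2 fold change of 0.03 (SE 0.11). Its libraries all lay within 3 CPM of each other. The stress-inducible Dnajb1 and the constitutive Dnaja2 had log2 fold changes of 0.16 and 0.14.

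The 8 subunits of TRiC/CCT, which folds actin and tubulin, had log2 fold changes from -0.11 to 0.29, with 6 above 0 and none past the test. Cct6a had the largest difference, at 267, 316 and 412 CPM in WT and 245, 244 and 320.4 CPM in Il21r-/- cells. WT was the higher library on each day, the log2 fold change was 0.29 (SE 0.10), and the edgeR adjusted p was 0.147, or 0.00598 with day as a block. Tcp1, the subunit with the smallest difference, was at 795, 838 and 907 CPM in WT and 814, 772 and 868 CPM in Il21r-/- cells, with a log2 fold change of 0.05 (SE 0.10). Cct5 was lower in WT than in Il21r-/- cells on each day, with 696, 707 and 839 CPM against 801, 724 and 886 CPM, but its log2 fold change of -0.11 (SE 0.11) did not pass (edgeR adjusted p = 0.623).

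Prefoldin hands new chains of actin and tubulin to TRiC/CCT, and its listed genes held the only member called lower in WT once day was a block. Pfdn5 (chr15:102326116-102331490) was at 288, 248 and 358 CPM in WT and 404, 316 and 491 CPM in Il21r-/- cells. WT was lower on each day, though the groups overlapped across days, and the log2 fold change of -0.44 (SE 0.16) had an edgeR adjusted p of 0.153, or 4.65e-05 with day as a block. Pfdn1 was at 105, 105 and 136 CPM in WT and 130.4, 111 and 157 CPM in Il21r-/- cells, again lower in WT on each day, with a log2 fold change of -0.21 (SE 0.12). Pfdn4, the subunit with the smallest difference, was at 46.9, 50.3 and 56.1 CPM in WT and 49.0, 40.7 and 57.0 CPM in Il21r-/- cells, with WT higher on 1 of 3 days and a log2 fold change of 0.07 (SE 0.12), and Pfdn2 had one of 0.10.

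Short genes leaned toward Il21r-/- cells in the whole table, which touches the prefoldin genes and Hspe1. Of the 1157 tested genes with transcripts under 1 kb, 34.1% had a log2 fold change above 0 and the median was -0.09, while above 3 kb the median was 0.01. The 3 members under 1 kb were Pfdn2, Pfdn5 and Hspe1, of which 1 was above 0. From 1 to 2 kb 7 of 10 members were above 0, against 46.9% of all tested genes of that length. From 2 to 3 kb it was 18 of 19, against 50.3%, and above 3 kb 7 of 7, against 51.3%. The part of transcript length in these differences was not tested.

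The heat shock factors themselves did not pass the test. Hsf1, the factor that answers protein damage, was at 22.7, 28.8 and 23.2 CPM in WT and 18.3, 26.3 and 20.4 CPM in Il21r-/- cells, with WT higher on each day and a log2 fold change of 0.20 (SE 0.17), whose 95% interval ran from -0.18 to 0.58. Hsf2 was at 7.33, 8.50 and 10.6 CPM in WT and 7.38, 7.20 and 7.87 CPM in Il21r-/- cells, with a log2 fold change of 0.22 (SE 0.15) and an interval from -0.12 to 0.56. These intervals hold both no change and changes of the size seen for Stip1.

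Ratios of read counts within a library remove its depth and scaling, and 3 pairs of partner genes were taken after their values had been seen, so the ratios are a description. The inducible over the constitutive HSP90 gene, Hsp90aa1 to Hsp90ab1, was 0.136, 0.129 and 0.132 in WT and 0.105, 0.104 and 0.103 in Il21r-/- cells on days 7, 10 and 14. This ratio hardly moved with day in either genotype, and the genotypes did not overlap, with a mean log2 difference of 0.34. Hsph1 to Hspa4 was 0.212, 0.234 and 0.245 in WT and 0.160, 0.185 and 0.207 in Il21r-/- cells, without overlap, with a log2 difference of 0.33. Hspd1 to Hspe1 was 1.18, 1.18 and 0.913 in WT and 0.756, 1.02 and 0.568 in Il21r-/- cells, with WT the higher library on each day but an overlap across days, with a log2 difference of 0.51. With 3 libraries against 3, a two-sided exact permutation test that ignores the pairing by day cannot go below p = 0.1. This test gave 0.1, 0.1 and 0.2 in this order. No conclusion is drawn from it, because the pairs were taken after their values had been seen.

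**Figure D4:**
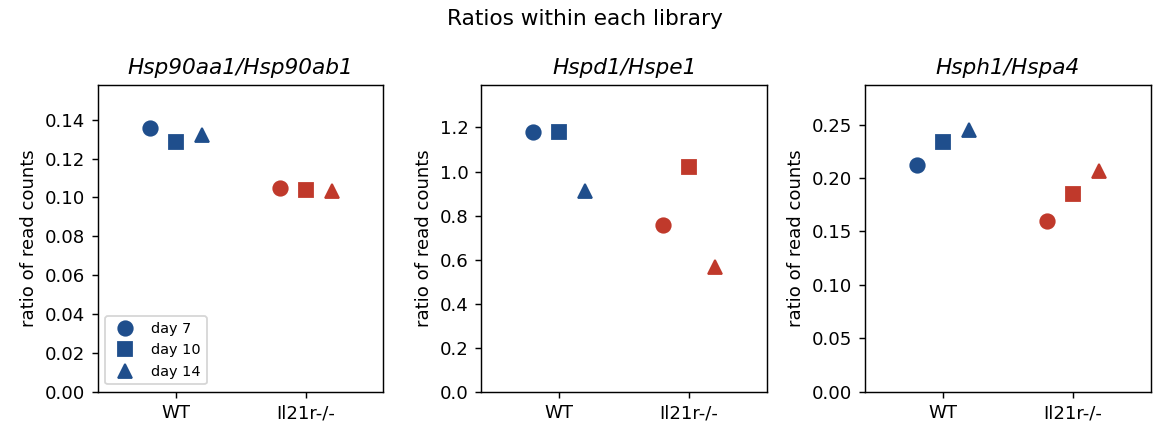
Ratio of the read counts of paired genes in each library (vertical axes from 0) by genotype, with circles for day 7, squares for day 10 and triangles for day 14. The Hsp90aa1 to Hsp90ab1 ratios sit between 0.129 and 0.136 in WT and between 0.103 and 0.105 in Il21r-/- cells, whereas those of Hspd1 to Hspe1 overlap.

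Each day on its own compared 1 library with 1 library, with a spread borrowed from all 6, and few members passed edgeR's likelihood ratio test. On day 7, 0 members were called, against 1.07% of all tested genes. An unadjusted p under 0.05 was held by 3 of 39 members (Hspd1, Hsp90aa1 and Hsph1) and 606 of 11005 tested genes. On day 10, 0 were called, against 3.1% of all tested genes. An unadjusted p under 0.05 was held by 4 of 39 members (Hsp90aa1, Stip1, Hspa4l and Hsph1) and 1190 of 11005 tested genes. On day 14, 2 were called, against 3.28%, both higher in WT: Hsp90aa1 with a log2 fold change of 0.73 (SE 0.20) and Hsph1 with 0.75 (SE 0.22), with adjusted p-values of 0.0142 and 0.0241. DESeq2's Wald test called 0 members on each of the 3 days, against 0.291%, 1.2% and 0.845% of all tested genes. With the spread estimated with day as a block, 3 members passed on day 7 (7.69%, against 2.75% of all tested genes), 4 on day 10 (10.3%, against 7.47%) and 6 on day 14 (15.4%, against 9.59%). All were higher in WT except Pfdn5, which was lower on days 7 and 14. With the linear day term kept 5 passed on day 10 (12.8%, against 6.56%). Without Il21r-/- day 10 in the spread, 1, 3 and 4 members passed on days 7, 10 and 14, against 2%, 5.84% and 6.4% of all tested genes. Leaving out WT day 7 gave 0, 1 and 1, WT day 10 gave 0, 0 and 1, and WT day 14 gave 0 on each day.

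The log2 fold changes of Hsp90aa1 and Stip1 stood higher on each later day, but a difference in day trend between genotypes was not detectable. For Hsp90aa1 they were 0.47, 0.58 and 0.73 on days 7, 10 and 14, and for Stip1 0.26, 0.50 and 0.64. Those of Hsph1 and Hspd1, also called over 3 days, were lowest on day 10. They were 0.60, 0.51 and 0.75 for Hsph1 and 0.54, 0.39 and 0.64 for Hspd1. In edgeR's quasi-likelihood test of the genotype by day interaction 0 of 39 members passed, against 0% of all tested genes, with 0 members and 118 of all genes at an unadjusted p under 0.05, and DESeq2 called 0 members.

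The linear day trend, printed as the log2 change over these 7 days with genotype as a covariate, was above 0 for 38 of 39 members, with a median of 0.29, and for 50.5% of all tested genes, with a median of 0.00. One member passed edgeR's quasi-likelihood test (2.56%), against 4.43% of all tested genes. This was Hspe1, which rose by 0.75 (SE 0.15) on the log2 scale, or 1.68-fold, with an adjusted p of 0.0292. Its levels lay between 163 and 188 CPM on days 7 and 10 and at 276 and 285 CPM on day 14. The call was lost without either library of day 7 or either library of day 14, which left 0 members called, against 0 to 1.26% of all tested genes. Without Il21r-/- day 10, 11 passed (28.2%), against 19.4%. Without WT day 10, 1 passed (2.56%), against 3.7%. DESeq2's Wald test and edgeR's likelihood ratio test each called 3 members (7.69%), against 7.91% and 10.8% of all tested genes.

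Comparing day 14 directly with day 7, with day as a factor, called 19 members (48.7%), against 26.2% of all tested genes, and all 19 rose. By role they were Cct3, Cct4, Cct6a and Cct8 of TRiC/CCT, Pfdn1 and Pfdn5 of prefoldin, Hspd1 and Hspe1 of the mitochondrial chaperonin, Hspa8, Hsph1, Hspa4l and Hspa1b, both HSP90 genes, and Stip1, Ahsa1, Fkbp4, Ppid and Chordc1. The log2 changes ranged among the abundant ones up to 0.73 (SE 0.10) for Hspe1 and 0.51 (SE 0.09) for Cct6a, while Hspa1b had 1.09 (SE 0.31) from few reads. No J protein and no heat shock factor passed, and Dnaja2 had -0.01 (SE 0.09). The levels of Cct3, as an example, were 575, 635 and 772 CPM in WT and 557, 518 and 685 CPM in Il21r-/- cells. Those of Cct8 were 477, 503 and 581 CPM in WT and 434, 425 and 524 CPM in Il21r-/- cells, of Cct4 567, 577 and 726 CPM in WT and 649, 563 and 742 CPM in Il21r-/- cells. In these subunits the day 14 library was the highest of its genotype. Chordc1 was at 128, 129.8 and 162 CPM in WT and 123, 117 and 140.1 CPM in Il21r-/- cells and Ahsa1 at 188, 191 and 233 CPM in WT and 168, 162 and 209.7 CPM in Il21r-/- cells, likewise highest on day 14 in both genotypes. Each day holds 1 library per genotype, so day cannot be told apart from anything else that differed between these collections.

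**Figure D5:**
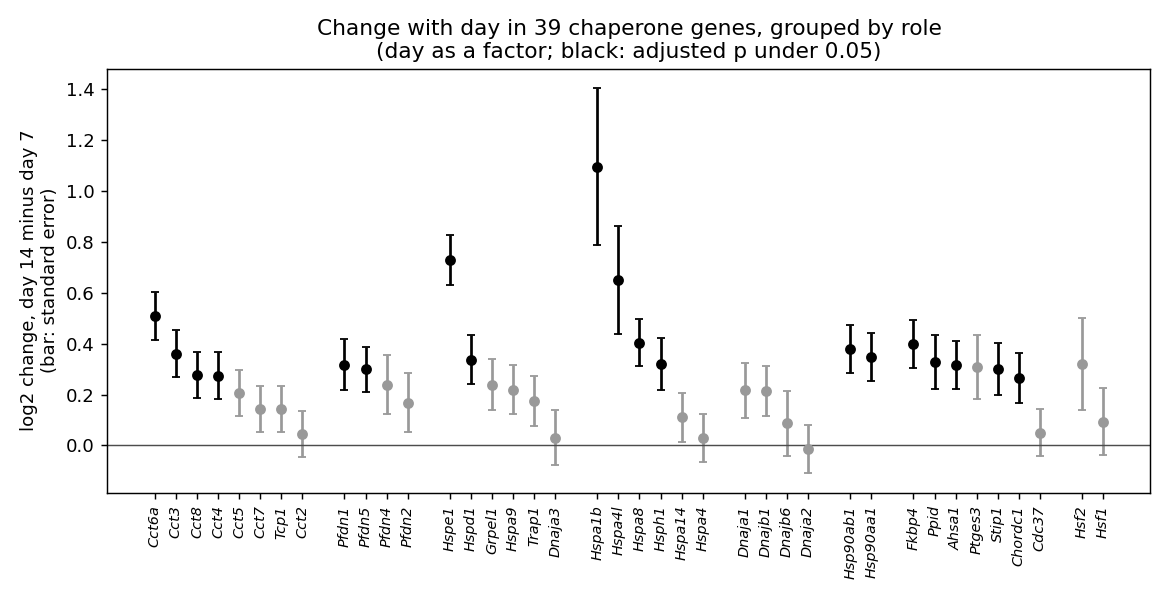
Log2 change from day 7 to day 14 (vertical axis) of the 39 tested genes, grouped by role, with day as a factor and genotype as a covariate; bars are standard errors and black marks an adjusted p under 0.05 in edgeR's quasi-likelihood test. All 19 black points are above 0, with Hspa1b and Hspe1 the highest, and Dnaja2 is the one point below 0.

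Chaperone genes outside the set were taken from a second list. Of its 94 genes, among them endoplasmic reticulum chaperones, other J proteins and BAG cochaperones, 78 were tested, 48 had a log2 fold change above 0, and the median was 0.06. In edgeR's quasi-likelihood test 2 passed (2.56%), against 5.92% of all tested genes. Bag2, a nucleotide exchange factor that also restrains the ubiquitin ligase CHIP, was higher in WT, at 26.8, 35.2 and 34.5 CPM in WT and 20.3, 22.0 and 23.6 CPM in Il21r-/- cells, with a log2 fold change of 0.55 (SE 0.12) and an adjusted p of 0.0321. Hscb, a mitochondrial J protein for iron-sulfur clusters, was lower in WT, at 50.02, 42.2 and 56.4 CPM in WT and 75.4, 61.1 and 92.1 CPM in Il21r-/- cells, with -0.62 (SE 0.15) and an adjusted p of 0.0495. Dnajb14 had the largest difference of the list, with 1.65, 2.24 and 2.53 CPM in WT and 2.88, 3.73 and 3.85 CPM in Il21r-/- cells and a log2 fold change of -0.72 (SE 0.20), but did not pass (edgeR adjusted p = 0.0748). With day as a block 13 passed (16.7%), against 22.9%, 9 higher and 4 lower in WT. In the day trend 0 passed, against 4.43%, and 52 of 78 were above 0, against 50.5% of all tested genes. The unadjusted p was under 0.05 for 11 of 78 and for 2587 of 11005 tested genes.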

How the data were processed

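RNA-seq was done on 6 libraries, 3 WT and 3 Il21r-/-, grouped by their labels. The authors prepared the libraries with an unstranded TruSeq kit, processed reads with CASAVA 1.8.2, aligned them to mm10 with Rsubread and assigned them to genes with featureCounts and its built-in RefSeq genes. Runs of the same library were merged, and raw read counts per gene were deposited. The strand and multi-mapping settings were not given in the sources used here. Symbols came from RefSeq GRCm38.p6. The filter dropped genes with an average log2 CPM under 0, genes on the Y chromosome, Xist and variable-region Ig genes, and libraries were scaled by TMM in edgeR 4.0.16 (R 4.3.3). Genotype over 3 days, the day trend and their interaction were tested by the quasi-likelihood test with genotype and a linear day effect, each day by the likelihood ratio test, with Benjamini-Hochberg adjustment over 11005 genes at 0.05. SEs come from the fitted negative binomial model, and the common biological coefficient of variation was 13.1%. Scripts were tested on simulated data.

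The day pairs the libraries. After the genotype means were subtracted, the libraries of a day correlated across genes with r = 0.640, 0.413 and 0.645 on days 7, 10 and 14. The linear day effect was not subtracted, so these values also hold any linear trend that the genotypes share. Alternatives were day as a block, no day term, DESeq2 1.42.0, other scalings and filters, and leaving out each library. Values per library are given for members called in any test, the members of each role with the largest and smallest difference, Hspa1a, Hspa1b and the heat shock factors. The members and lists were chosen with earlier results of these data known. Intervals and counts cover library spread and counting error as modelled; duplicated molecules cannot be recognised without molecular identifiers.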

Additional observations from a re-analysis of the deposited data

How the results depend on the processing

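The log2 fold changes of the 15 members called over 3 days with or without the block, and the day trend of Hspe1, kept their sign under the alternatives tried. The number of members called over 3 days (4) was 15 with day as a replicate block, pairing the libraries of a day (38.5%, against 22.9% of all tested genes). It was 0 with no day term, against 1.57%, and 0 to 9 when single libraries were left out, against 1.24% to 19.1%. It was 4 (10.3%) with DESeq2's size factors, total counts, a minimum of 10 counts or the left-out genes kept. The shares of all tested genes there were 6.09%, 4.03%, 5.14% and 5.21%. It was 5 with no filter on low counts (12.5%, against 5.86%). DESeq2's Wald test (12.8%, against 8.64%) and the likelihood ratio test (12.8%, against 10.8%) also gave 5, the added gene being Hspa4l. The median log2 fold change of the members (0.17) was 0.12 to 0.25 when single libraries were left out. Under every scaling tried, 33 to 34 of the 39 members were above 0, and the median of all genes, -0.01 as reported, was 0.03 with total counts. The number called in the day trend (1) was 2 with no filter (5%, against 5.14%) and 2 with total counts only (5.13%, against 3.32%). It was 3 with DESeq2's Wald test (7.69%, against 7.91%) and 3 with the likelihood ratio test (7.69%, against 10.8%). For day 14 against day 7 with day as a factor it was 19 (48.7%, against 26.2%). When single libraries were left out it was 0 to 11, against 0% to 19.4%. The number called on day 7 (0) was 3 with the spread from the replicate block (7.69%, against 2.75% of all tested genes). It was 0 to 1 when libraries were left out of the spread, against 0.945% to 2%. On day 10 (0) it was 5 with the linear day term kept (12.8%, against 6.56%) and 4 with the spread from the replicate block (10.3%, against 7.47%). It was 0 to 3 when libraries were left out, against 2.43% to 5.84%. On day 14 (2) it was 6 with the spread from the replicate block (15.4%, against 9.59%) and 0 with DESeq2's Wald test, against 0.845%. It was 0 to 4 when libraries were left out, against 2.62% to 6.4%. The difference in day trend gave 0 members in each alternative. Hsp90aa1 and Hsph1 passed over 3 days in 12 of 15 alternatives, Stip1 in 10 and Hspd1 in 9. The use of total counts was chosen after seeing the data. With 1 library per genotype and day, a lone library left in a comparison was assumed to vary like the others. The causes of these shifts were not tested.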
